A study of Mus musculus with 5 samples.

Results

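The extracellular matrix of fibroblasts is the subject here, as a list of 45 genes that encode its collagens, laminins, elastic fibre proteins, adhesive glycoproteins and small proteoglycans, with the enzymes that cross-link, cut and protect them. The list was drawn up by function, with earlier results of these data known. Of the 45 genes, 42 had at least 1 probe set annotated to that gene alone, out of 18194 such genes on the array, while Fbn1, Loxl2 and Spp1 had none and were not analysed here. These 42 genes had 97 probe sets, and the one of highest mean signal over the 5 arrays stands for the gene. Fibroblasts secrete fibrillar collagens as procollagens, which are folded and hydroxylated in the endoplasmic reticulum, trimmed outside the cell and cross-linked by lysyl oxidases. Basement membranes form from laminins and type IV collagen linked by nidogens, and metalloproteinases (MMPs) and their tissue inhibitors (TIMPs) set how long matrix proteins last. Several cytokine mRNAs of fibroblasts carry AU-rich elements, to which AUF1 (the product of Hnrnpd) and related proteins bind.

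The RNA came from NIH/3T3 cells, an established line of mouse embryonic fibroblasts, infected with retroviral vectors that express myc-tagged AUF1 p42 when mifepristone is given. Cells selected in bulk for the vectors, with 1 nM mifepristone present during the selection, were later lysed. Ribonucleoprotein complexes were precipitated on beads with an antibody to the tag (RNP-IP). The arrays held 2 induced-label RNP-IPs, from cells given 1 nM mifepristone for 24 h, 2 uninduced-label RNP-IPs, from the same line without this induction, and 1 sample of total RNA whose induction state the titles leave unsaid. The same amount of RNA of every sample was amplified and hybridized to mouse GeneChips, so a signal reports a share of the RNA in that sample and not the amount brought down.

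The mRNA of the induced gene, taken as a check of the labels, went against them. Signals of Hnrnpd, which encodes AUF1, were 6.72 and 7.39 on the log2 scale in the induced-label RNP-IPs, against 11.35 and 11.85 in the uninduced-label RNP-IPs and 10.60 in total RNA, and whether its probe sets match the inserted cDNA was not checked here. These signals do not measure the tagged protein and do not show that labels were exchanged, and other checks of induction were not analysed here. The study reports a blot in which the tagged protein appeared after mifepristone and not before. It also reports RT-PCR in which most of its selected mRNAs were enriched after induction. The precipitates are therefore called induced-label and uninduced-label RNP-IPs throughout. Signals are RMA values on the log2 scale, with array medians of 3.77 to 3.83, and a signal under 5 is called near background, so that a fold against a group wholly under 5 is only a minimum. The control probe set for the 5' end of Gapdh separated the arrays in another way, with 8.18 and 4.24 in the induced-label RNP-IPs, 3.65 and 7.81 in the uninduced-label RNP-IPs and 6.93 in total RNA. Induced-label RNP-IP 2 and uninduced-label RNP-IP 1 were thus the low ones.

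Of the 42 genes, 29 were at or above log2 5 on every array and 5 were under 5 on every array. The 5 near background were Eln (elastin), Tnc (tenascin C), Lum (the collagen-binding proteoglycan lumican), Mmp3 (stromelysin) and Lama4 (a laminin alpha chain), between 3.17 and 4.95. Markers matched the label of the cells. Among 6 fibroblast markers, Vim (vimentin), S100a4, Thy1, Pdgfra and Pdgfrb were above log2 5 on all 5 arrays, and Fap was near background. All 6 endothelial markers, 5 of 6 neural, 4 of 5 measured blood cell and 5 of 6 epithelial markers were under 5 on every array, the epithelial exception being Epcam at 6.66 to 6.99. Of the fibroblast markers, Pdgfrb was called lower in the induced-label RNP-IPs than in the 3 controls (log2 -1.59, adjusted p = 0.426 from limma), and Pdgfra higher in the uninduced-label RNP-IPs than in total RNA (1.72, adjusted p = 0.401). No marker of another cell type was called, and the small number of arrays limits the precision of every value.

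**Figure D1:**
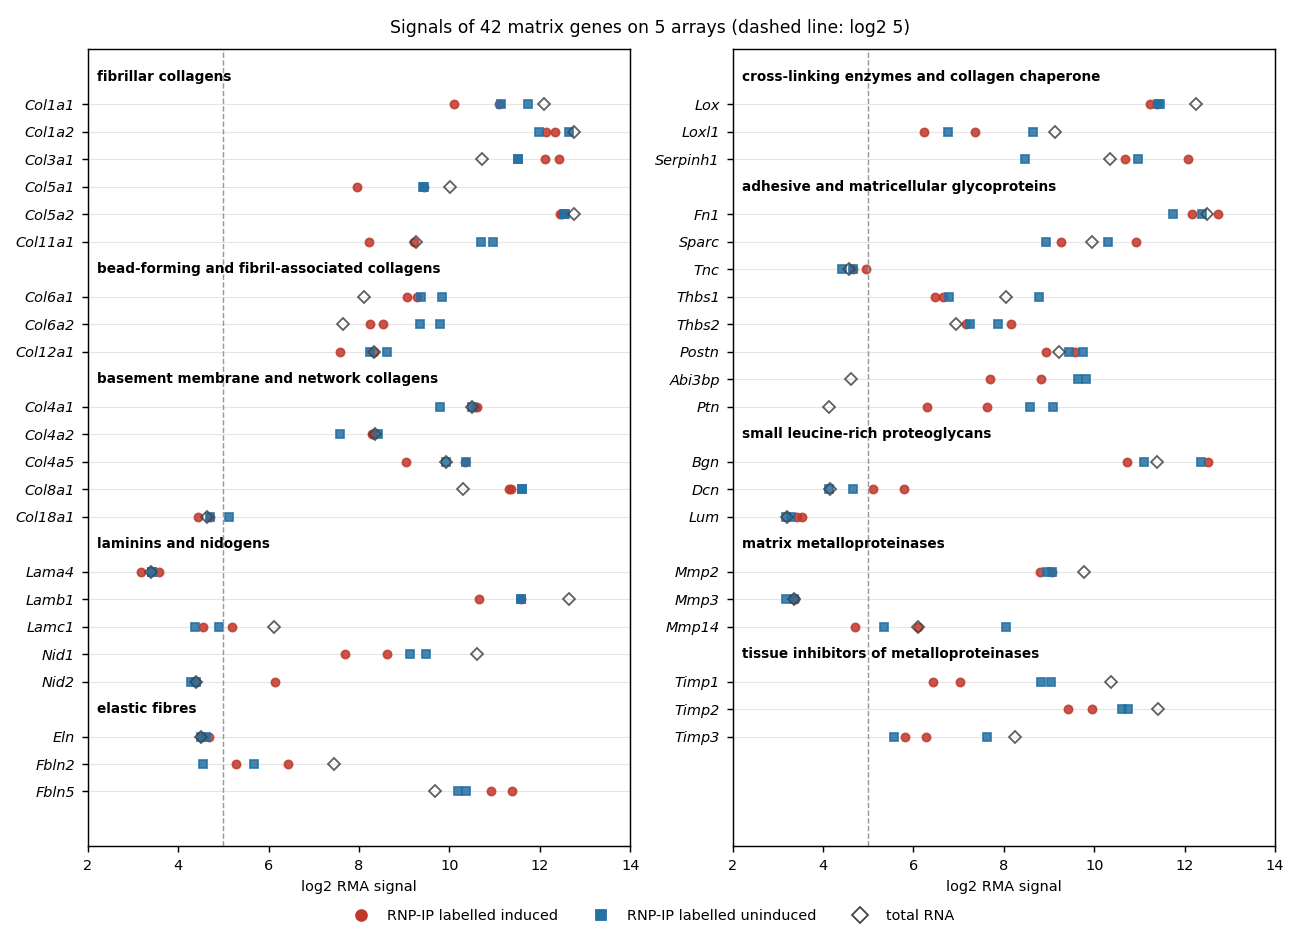
Log2 RMA signal (horizontal axis) of the 42 measured matrix genes, 1 gene per line grouped by role, each marker 1 array and the dashed line log2 5. Timp1 and Nid1 lie lowest in the induced-label RNP-IPs and highest in total RNA, and Abi3bp and Ptn lie far lower in total RNA than in all 4 RNP-IPs.

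The first question was which matrix mRNAs differed with induction of the tagged protein, and it set the 2 induced-label RNP-IPs against 3 controls, which are total RNA and the 2 uninduced-label RNP-IPs. On the brightest probe set no matrix gene was called higher and 2 were called lower, Timp1 and Nid1, with 40 not called. Calling a gene takes a 3-fold difference or more together with an adjusted p below 0.5 (limma, Benjamini-Hochberg over all probe sets). Thbs2 was called higher on a dimmer probe set alone, as given below. Over all 18194 genes the same rule called 1.32% higher and 2.36% lower, and 2.36% of 42 is about 1 gene. The median log2 fold of the matrix genes was -0.18 and that of all genes 0.002, with 18 of the 42 above 0 and 24 below. Both induced-label RNP-IPs lay above all 3 controls for 5 of the 42 (11.9%, against 12.0% of all genes) and below them for 8 (19.0%, against 13.4%). Among genes with a mean signal of at least log2 5 these shares were 8.82% above and 23.5% below for 34 matrix genes, against 15.5% and 24.2% of 8275 genes. With the uninduced-label RNP-IPs alone as the controls, 3 matrix genes were lower (Timp1, Col11a1 and Ptn) and none was higher, against 2.65% and 1.38% of all genes. In neither comparison did a probe set of the whole table reach an adjusted p under 0.05 in limma, while 4836 and 5202 of the 45101 had an unadjusted p under 0.05, among them 6 of the 42 matrix genes in the first.

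The 3 TIMPs formed the only one of the roles in which the brightest probe set of every gene had a negative log2 fold in 2 comparisons. The medians were -1.01 between the RNP-IPs and -1.42 between the uninduced-label RNP-IPs and total RNA. These 2 signs together force a negative fold against the 3 controls (median -1.24), so that sign adds nothing. The comparisons share arrays, the role has only 3 genes, and the share of all genes with such signs was not counted. Timp1, a secreted inhibitor of most MMPs that many growth signals induce, had log2 signals of 6.44 and 7.02 in the induced-label RNP-IPs, 9.05 and 8.83 in the uninduced-label RNP-IPs and 10.36 in total RNA. The 3 kinds of sample did not overlap. Against the 3 controls it was 6.41-fold lower (log2 -2.68, SE 0.57, adjusted p = 0.249 from limma), and against the uninduced-label RNP-IPs 4.61-fold lower (log2 -2.21, SE 0.26, adjusted p = 0.179). Relative to total RNA, Timp1 stood at a log2 difference of -3.63 in the induced-label RNP-IPs and of -1.42 in the uninduced-label RNP-IPs (SE 0.32, adjusted p = 0.361, not called). Its single probe set leaves no second reading of the gene. The first call ended without induced-label RNP-IP 1 (log2 -2.39, adjusted p = 0.508), and the second held without any single array.

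Timp2, which inhibits MMPs and also helps MT1-MMP to activate pro-MMP2, showed the same order at a smaller size. It had 9.41 and 9.96 in the induced-label RNP-IPs, 10.62 and 10.76 in the uninduced-label RNP-IPs and 11.40 in total RNA, which is a log2 fold of -1.24 against the 3 controls (SE 0.33, adjusted p = 0.311) and was not called. Its second brightest probe set did not share that order, with 10.54 and 9.55 in the induced-label RNP-IPs, 8.33 and 10.05 in the uninduced-label RNP-IPs and 10.52 in total RNA. A dimmer probe set of Timp2 had a log2 fold of 0.57 against the 3 controls and another had -0.58, and the rest were near background. Timp3, the inhibitor that stays bound to the matrix, had 6.28 and 5.82 in the induced-label RNP-IPs, 5.56 and 7.63 in the uninduced-label RNP-IPs and 8.24 in total RNA. Here the RNP-IPs overlapped, all 4 lay under total RNA, and the log2 fold against the controls was -1.09 (adjusted p = 0.718). The log2 difference of Timp3 between the uninduced-label RNP-IPs and total RNA was -1.65 (SE 1.08, adjusted p = 0.777). On its second brightest probe set the groups did not overlap, with 5.64 and 6.33 in the induced-label RNP-IPs, 6.75 and 6.71 in the uninduced-label RNP-IPs and 7.64 in total RNA. The log2 fold there was -1.05 against the 3 controls (SE 0.41, adjusted p = 0.515). On a dimmer probe set of Timp3 the RNP-IPs overlapped again (log2 -1.15, SE 1.29, adjusted p = 0.781).

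The metalloproteinases themselves were not called in any comparison. Mmp2 (gelatinase A) had 8.80 and 9.07 in the induced-label RNP-IPs, 8.96 and 9.07 in the uninduced-label RNP-IPs and 9.77 in total RNA. Mmp14, the membrane-bound MT1-MMP, was uneven within both kinds of RNP-IP, at 6.09 and 4.71 in the induced-label RNP-IPs, 5.36 and 8.05 in the uninduced-label RNP-IPs and 6.09 in total RNA. The replicates of Mmp14 were farther apart than the groups (log2 -1.10 against the 3 controls, SE 1.01, adjusted p = 0.735).

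Of the laminins and nidogens, Nid1, Lamb1 and Lamc1 were lower in all 4 RNP-IPs than in total RNA. Nid1 (nidogen 1, which bridges laminin and type IV collagen) had 7.69 and 8.62 in the induced-label RNP-IPs, 9.48 and 9.13 in the uninduced-label RNP-IPs and 10.61 in total RNA. It was called lower against the 3 controls with a log2 fold of -1.58 (SE 0.59, adjusted p = 0.484), a fold of 3.00 that lies on the threshold. Against the uninduced-label RNP-IPs alone the log2 fold was -1.15 (SE 0.42, adjusted p = 0.507) and was not called. The first call ended without induced-label RNP-IP 1 (log2 -1.12), without uninduced-label RNP-IP 1 (-1.71), without uninduced-label RNP-IP 2 (-1.89) and with cyclic loess (-1.50). The other probe sets of Nid1 were near background on every array, and the mean over all of them had a log2 fold of -0.62. Lamb1, the beta chain of the common fibroblast laminins, had 10.66 and 11.58 in the induced-label RNP-IPs, 11.58 on both uninduced-label arrays and 12.64 in total RNA. Lamc1, the gamma chain that most laminins share, was at 4.54 and 5.19 in the induced-label RNP-IPs, 4.91 and 4.36 in the uninduced-label RNP-IPs and 6.11 in total RNA, a log2 difference of -1.47 or beyond between the uninduced-label RNP-IPs, both near background, and total RNA (SE 0.44, adjusted p = 0.447). Nid2 had a signal of 6.15 in induced-label RNP-IP 2 alone and of 4.29 to 4.40 elsewhere, so its log2 fold of at least 0.93 against the uninduced-label RNP-IPs (SE 0.73, adjusted p = 0.721) rested on that array. With the other induced-label array left out, Nid2 was called higher (log2 at least 1.80, adjusted p = 0.376).

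Type IV collagen, the network of basement membranes, was not called in any comparison. Col4a1 had 10.56 and 10.60 in the induced-label RNP-IPs, 9.78 and 10.50 in the uninduced-label RNP-IPs and 10.50 in total RNA. Its second probe set read 10.18 and 10.26 in the induced-label RNP-IPs, 9.39 and 9.26 in the uninduced-label RNP-IPs and 8.72 in total RNA. On that probe set the groups did not overlap, with a log2 fold of 1.10 against the 3 controls (SE 0.24, adjusted p = 0.250 from limma), under the 3-fold limit. Col4a2, transcribed from the same divergent promoter region, had a log2 fold of 0.18 (SE 0.30) against the 3 controls. Col4a5, a chain that joins other type IV networks, had one of -0.38 (adjusted p = 0.794). Col8a1, a short-chain network collagen, was even within each kind of RNP-IP, at 11.32 and 11.37 with the induced label and 11.60 and 11.60 with the uninduced one, and lower in total RNA at 10.31. That is a log2 difference of 1.29 between the uninduced-label RNP-IPs and total RNA (SE 0.06, adjusted p = 0.156), under the 3-fold limit. The second brightest probe set of Col8a1 was uneven, at 6.35 and 5.40 with the induced label and 5.08 and 7.21 with the uninduced one. Total RNA was at 5.06 there, and the same log2 difference was 1.09 (SE 1.19, adjusted p = 0.951). Col18a1, whose carboxyl end is endostatin, was near background on 4 of 5 arrays.

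Among the 6 fibrillar collagens 5 had a negative log2 fold against the 3 controls, none of them called, and the range was -1.59 to 1.02. Col1a1 and Col1a2 encode the chains of type I collagen, the main product of fibroblasts, and neither was called. Col1a1 had 10.11 and 11.09 in the induced-label RNP-IPs, 11.74 and 11.15 in the uninduced-label RNP-IPs and 12.09 in total RNA (log2 fold -1.06, SE 0.44, adjusted p = 0.558). Col1a2 had 12.34 and 12.14 in the induced-label RNP-IPs, 11.98 and 12.65 in the uninduced-label RNP-IPs and 12.75 in total RNA (log2 fold -0.22, adjusted p = 0.806). Col5a1 and Col5a2, chains of the type V collagen that limits fibril width, were at log2 folds of -0.93 and -0.15, with Col5a1 between 7.95 and 10.00 and Col5a2 between 12.45 and 12.75 on all arrays. The second brightest probe set of each lay lower in both induced-label RNP-IPs than in every control. It had log2 folds of -0.91 for Col5a1 (SE 0.18, adjusted p = 0.222 from limma) and -1.02 for Col5a2 (SE 0.35, adjusted p = 0.440), under the 3-fold limit. Col3a1, the type III collagen of pliable tissue, ran the other way, with 12.11 and 12.43 in the induced-label RNP-IPs, 11.51 on both uninduced-label arrays and 10.72 in total RNA. Its groups did not overlap, the log2 fold of 1.02 (SE 0.32, adjusted p = 0.387) is under the 3-fold limit, and its second probe set had a fold of the opposite sign (-0.66, adjusted p = 0.794).

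Col11a1 encodes a chain of type XI collagen, which is best known as a nucleator of thin fibrils in cartilage. It had 8.23 and 9.21 in the induced-label RNP-IPs, 10.97 and 10.69 in the uninduced-label RNP-IPs and 9.26 in total RNA, so the uninduced-label RNP-IPs stood above the other samples. Against them it was called 4.33-fold lower (log2 -2.12, SE 0.43, adjusted p = 0.291), and the call ended without uninduced-label RNP-IP 1 (log2 -1.98, adjusted p = 0.504). Against all 3 controls the log2 fold was -1.59 (SE 0.68, adjusted p = 0.567), not called. Between the uninduced-label RNP-IPs and total RNA it was 1.57 (SE 0.52, adjusted p = 0.488), not called. The other probe set of Col11a1 read 8.79 and 8.06 in the induced-label RNP-IPs, 7.39 and 8.47 in the uninduced-label RNP-IPs and 5.58 in total RNA. It had a log2 fold of 0.50 between the RNP-IPs (SE 0.54, adjusted p = 0.738), so the lower level in the induced-label RNP-IPs rests on 1 of 2 probe sets.

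Beaded and fibril-associated collagens included the only collagen whose brightest probe set was called against total RNA. Col6a2, a chain of the type VI microfibrils around cells, had 8.24 and 8.54 in the induced-label RNP-IPs, 9.78 and 9.34 in the uninduced-label RNP-IPs and 7.65 in total RNA. In the uninduced-label RNP-IPs it was 3.76-fold above total RNA (log2 1.91, SE 0.28, adjusted p = 0.258), and between the RNP-IPs it was lower in the induced-label RNP-IPs, by a log2 fold of -1.17 (SE 0.23, adjusted p = 0.275) that is under the 3-fold limit. A second probe set of Col6a2 had the same order, at 6.79 and 6.79 in the induced-label RNP-IPs, 7.74 and 7.27 in the uninduced-label RNP-IPs and 6.07 in total RNA. The partner chain Col6a1 showed a like order, at 9.28 and 9.07 in the induced-label RNP-IPs, 9.36 and 9.83 in the uninduced-label RNP-IPs and 8.11 in total RNA. The difference of Col6a1 from total RNA was 1.49 on the log2 scale (SE 0.27, adjusted p = 0.307), not called. Col12a1, which decorates type I fibrils, was between 7.59 and 8.62 on all arrays.

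**Figure D2:**
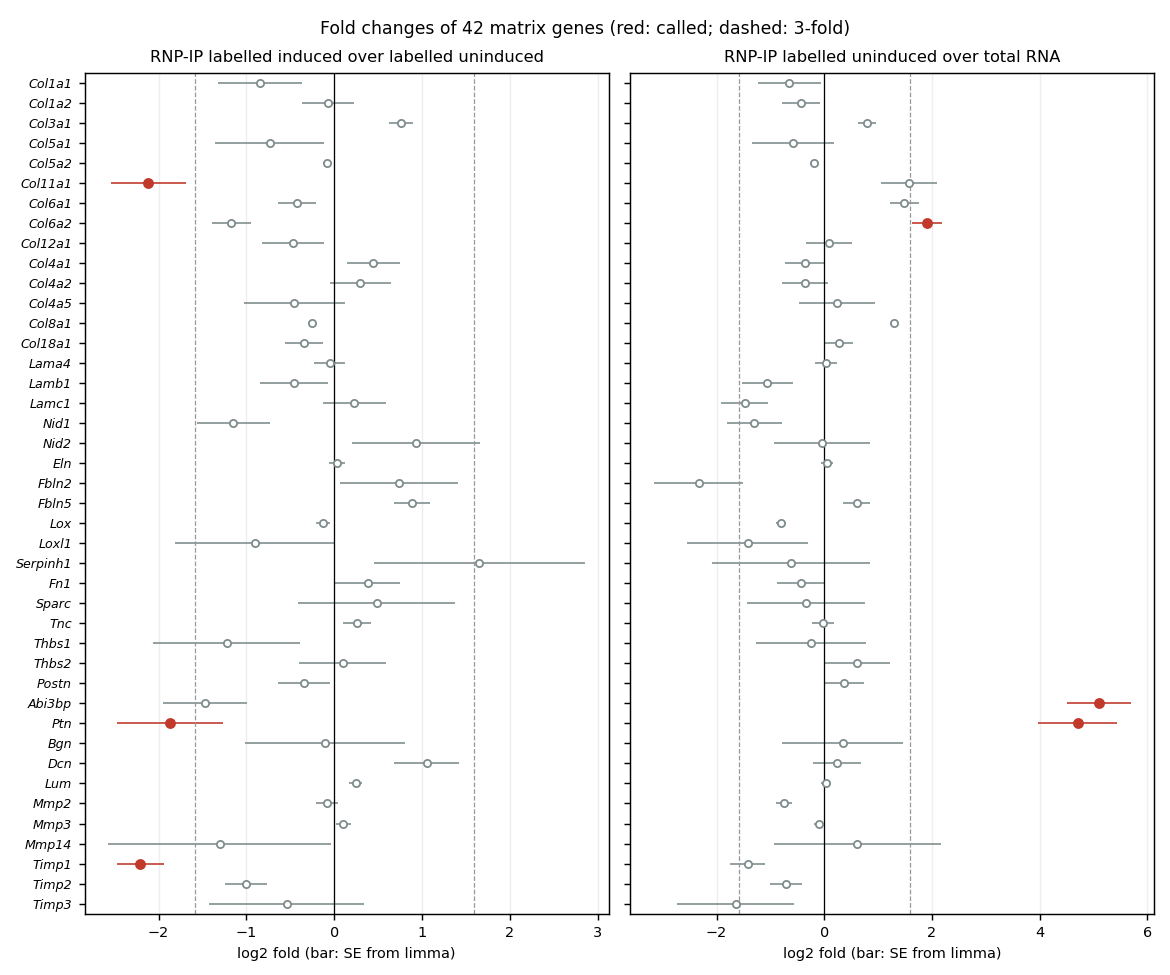
Log2 fold of each measured matrix gene with its SE from limma (horizontal axes) between the induced-label and uninduced-label RNP-IPs (left) and between the uninduced-label RNP-IPs and total RNA (right), red where called and dashed at 3-fold. Timp1, Col11a1 and Ptn were called lower on the left, and Abi3bp, Ptn and Col6a2 higher on the right, the 2 panels sharing the uninduced-label RNP-IPs.

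The second question was how the uninduced-label RNP-IPs differed from total RNA. Of the 42 matrix genes 3 were higher in the uninduced-label RNP-IPs (Abi3bp, Ptn and Col6a2) and none was lower, beside 1.26% and 1.36% of all genes, which for 42 genes is under 1 in each direction. The list was chosen with earlier results of these data known, so these counts describe the list and do not test it. The median log2 fold was -0.07 for the matrix genes and 0 for all genes. All 4 RNP-IPs lay above total RNA for 8 matrix genes (19.0%, against 20% of all genes) and below it for 14 (33.3%, against 21.3%), and with a mean of at least log2 5 the shares were 23.5% above, against 18.1%, and 41.2% below, against 30.4%. The 3 genes called higher kept their call without any single RNP-IP. Total RNA is a single array, assumed in the fit to vary like the RNP-IPs, so a difference between that sample and the precipitates cannot be told apart from a difference between the cultures they came from. No probe set had an adjusted p under 0.05 in limma in this comparison either, with 4896 at an unadjusted p under 0.05.

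Abi3bp showed the widest gap. It encodes a matrix protein first known as a partner of the SH3 domain of Abi3, and had 7.68 and 8.82 in the induced-label RNP-IPs, 9.81 and 9.64 in the uninduced-label RNP-IPs and 4.63 in total RNA, near background. The uninduced-label RNP-IPs were at least 34.2-fold above total RNA (log2 5.09, SE 0.59, adjusted p = 0.222), and the log2 difference of the induced-label RNP-IPs from total RNA was at least 3.62. Between the RNP-IPs the log2 fold of Abi3bp was -1.47 (SE 0.48, adjusted p = 0.462), under the 3-fold limit, and with single arrays left out it was called without induced-label RNP-IP 2 (log2 -2.04). Its second probe set, near background in 4 of 5 arrays, read 3.88 and 4.11 in the induced-label RNP-IPs, 4.99 and 5.28 in the uninduced-label RNP-IPs and 3.06 in total RNA, and was called as well (log2 at least 2.07, SE 0.19, adjusted p = 0.194). On both probe sets of Abi3bp the uninduced-label RNP-IPs were the highest samples, and on the dimmer one the others were all near background and have no order.

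Ptn, which encodes the heparin-binding growth factor pleiotrophin, followed the order of Abi3bp. Its signals were 6.29 and 7.64 in the induced-label RNP-IPs, 9.09 and 8.58 in the uninduced-label RNP-IPs and 4.13 in total RNA. Relative to total RNA the uninduced-label RNP-IPs were at least 26.0-fold higher (log2 4.70, SE 0.73, adjusted p = 0.273). Between the RNP-IPs Ptn was called 3.65-fold lower in the induced-label RNP-IPs (log2 -1.87, SE 0.60, adjusted p = 0.453). That call ended without induced-label RNP-IP 1 (log2 -1.20) and without uninduced-label RNP-IP 1 or 2 (-1.61 and -2.12). The other 2 probe sets of Ptn were near background everywhere. Since both comparisons use the uninduced-label RNP-IPs, the values of Ptn and Abi3bp in the 2 comparisons are not independent.

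The remaining adhesive glycoproteins were not called on their brightest probe set. Fn1 (fibronectin) had 12.73 and 12.15 in the induced-label RNP-IPs, 11.73 and 12.39 in the uninduced-label RNP-IPs and 12.50 in total RNA, a log2 fold of 0.23 against the controls (SE 0.33, adjusted p = 0.822). Postn (periostin) was within 8.93 to 9.75 on all arrays. Sparc, a collagen-binding matricellular protein, had 10.92 and 9.28 in the induced-label RNP-IPs, 8.93 and 10.30 in the uninduced-label RNP-IPs and 9.95 in total RNA, so that the replicates of each kind were farther apart than the groups. Thbs1 (thrombospondin 1, an activator of latent TGF-beta) had 6.65 and 6.49 in the induced-label RNP-IPs, 6.79 and 8.79 in the uninduced-label RNP-IPs and 8.05 in total RNA. Both induced-label arrays were below the controls of Thbs1, by a log2 fold of -1.31 (SE 0.66, adjusted p = 0.649).

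Thbs2 (thrombospondin 2, whose absence disturbs collagen fibrils in mice) was called in the induced-label RNP-IPs on a dimmer probe set alone. That probe set read 6.34 and 6.82 in the induced-label RNP-IPs, 4.11 and 4.60 in the uninduced-label RNP-IPs and 5.77 in total RNA. It was called higher in the induced-label RNP-IPs, by 3.37-fold against the 3 controls (log2 1.75, SE 0.58, adjusted p = 0.421) and by at least 4.68-fold against the uninduced-label RNP-IPs (log2 2.23, SE 0.29, adjusted p = 0.194). The brightest probe set of Thbs2 had 7.16 and 8.15 in the induced-label RNP-IPs, 7.88 and 7.24 in the uninduced-label RNP-IPs and 6.95 in total RNA, with a log2 fold of 0.30 (SE 0.45, adjusted p = 0.831). The third read 6.42 and 7.25, against 6.21 and 6.32 in the uninduced-label RNP-IPs and 5.67 in total RNA. All 3 had the sign of a higher level in the induced-label RNP-IPs, at sizes from 0.30 to 1.75 on the log2 scale. The study lists Thbs2 among its enriched mRNAs, a list drawn from these same arrays. In all, 35 of the 42 genes had more than 1 probe set, and of their 55 other probe sets 25 had a mean of at least log2 5. Of these 55, the probe set of Thbs2 was the only one called in either comparison of the induced-label RNP-IPs, and those of Col11a1 (5.10-fold, adjusted p = 0.429) and Abi3bp were the ones called against total RNA.

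**Figure D3:**
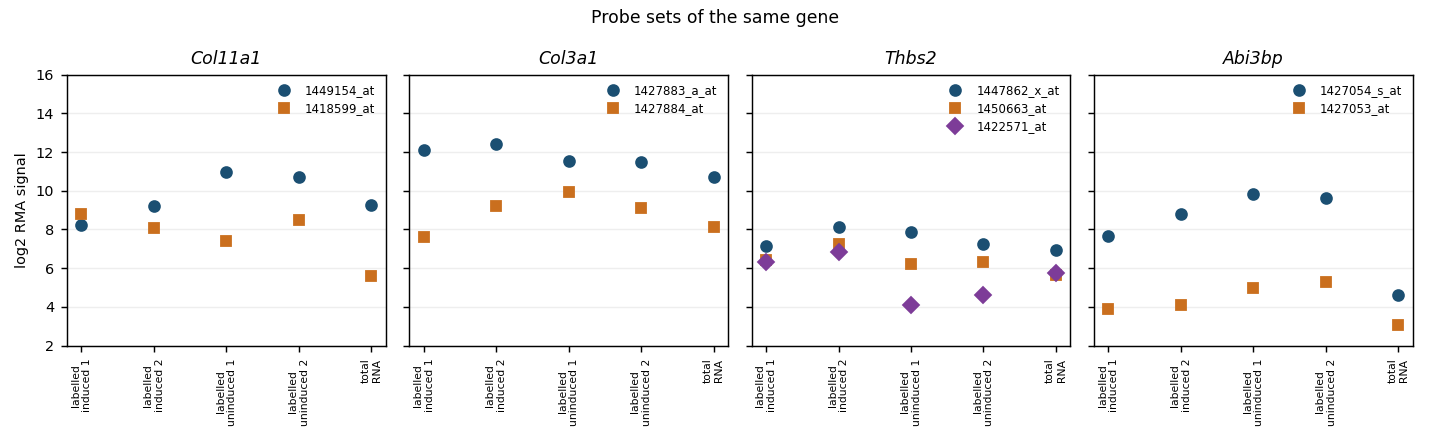
Log2 RMA signal (vertical axis) of every probe set of 4 matrix genes on the 5 arrays, each colour and marker 1 probe set. The 2 probe sets of Col11a1 and of Col3a1 do not share an order of samples, the dimmest of Thbs2 is at 4.11 and 4.60 in the uninduced-label RNP-IPs, and both of Abi3bp are highest in the uninduced-label RNP-IPs.

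Elastic fibre genes and small leucine-rich proteoglycans were not called in any comparison, although Fbln5 and Dcn were higher in both induced-label RNP-IPs than in every control. Fbln5, which tethers elastin to cells, had 11.38 and 10.93 in the induced-label RNP-IPs, 10.19 and 10.36 in the uninduced-label RNP-IPs and 9.67 in total RNA. The groups of Fbln5 did not overlap, and its log2 fold of 1.08 against the controls (SE 0.28, adjusted p = 0.302) is under the 3-fold limit, as is that of 0.88 between the RNP-IPs (SE 0.21, adjusted p = 0.336). Dcn (decorin, which binds collagen fibrils and TGF-beta) had 5.79 and 5.11 in the induced-label RNP-IPs, 4.67 and 4.12 in the uninduced-label RNP-IPs and 4.16 in total RNA. With all its controls near background, the log2 fold of Dcn was at least 1.13 (SE 0.30, adjusted p = 0.318) and at least 1.05 between the RNP-IPs (SE 0.37, adjusted p = 0.490), not called. Fbln2, a fibulin of basement membranes and elastic fibres, had 6.43 and 5.27 in the induced-label RNP-IPs, 4.56 and 5.67 in the uninduced-label RNP-IPs and 7.45 in total RNA. Its log2 difference between the uninduced-label RNP-IPs and total RNA was -2.33 (SE 0.82, adjusted p = 0.51), not a call. Fbln2 was called lower with median centring, cyclic loess, a filter on low means or a variance trend, and without uninduced-label RNP-IP 2. Bgn (biglycan) had 12.52 and 10.72 in the induced-label RNP-IPs, 11.10 and 12.35 in the uninduced-label RNP-IPs and 11.39 in total RNA, a spread wider than the log2 fold of 0.01 (SE 0.72).

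Lox and Loxl1, lysyl oxidases that start the cross-links of collagen and elastin, lay lower in all 4 RNP-IPs than in total RNA without being called. Lox had 11.24 and 11.39 in the induced-label RNP-IPs, 11.42 and 11.46 in the uninduced-label RNP-IPs and 12.25 in total RNA, a narrow spread on this probe set around a log2 fold of -0.40 against the 3 controls (adjusted p = 0.703). Its second brightest probe set was less even, with 7.02 and 6.47 in the induced-label RNP-IPs, 6.47 and 7.70 in the uninduced-label RNP-IPs and 8.08 in total RNA. The log2 fold there was -0.67 (SE 0.57, adjusted p = 0.722). Loxl1, needed for elastic fibres in mice, had 6.24 and 7.37 in the induced-label RNP-IPs, 6.77 and 8.64 in the uninduced-label RNP-IPs and 9.13 in total RNA. The log2 fold of Loxl1 was -1.38 (SE 0.89, adjusted p = 0.684), and it was called at -2.08 without uninduced-label RNP-IP 1. Against total RNA the uninduced-label RNP-IPs differed by -1.42 (SE 1.12, adjusted p = 0.848). Serpinh1 (HSP47, the collagen chaperone of the endoplasmic reticulum) had the highest log2 fold of the list, 1.44 against the 3 controls (SE 0.96, adjusted p = 0.686), and was not called. Its signals were 12.07 and 10.67 in the induced-label RNP-IPs, 8.47 and 10.98 in the uninduced-label RNP-IPs and 10.34 in total RNA. Uninduced-label RNP-IP 1 stood apart. The log2 fold between the RNP-IPs was 1.65 (SE 1.20, adjusted p = 0.721), 0.39 without uninduced-label RNP-IP 1, and 2.91 without uninduced-label RNP-IP 2, where it was called.

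Several matrix genes were low on the same 2 arrays, 1 of each label. For 8 of the 42 (Col1a2, Col4a2, Fbln2, Fn1, Sparc, Bgn, Mmp14 and Timp3) induced-label RNP-IP 2 and uninduced-label RNP-IP 1 were both below the other 3 arrays, which is 19.0%, against 6.45% of all genes. Among genes with a mean of at least log2 5 the shares were 23.5% of 34 matrix genes and 10.7% of 8275 genes. The reference genes Gapdh, Actb and Rplp0 all showed this order too. The same 2 arrays had the low Gapdh signals, at the 3' end 11.90 and 9.71 in the induced-label RNP-IPs, 9.70 and 12.11 in the uninduced-label RNP-IPs and 12.32 in total RNA. The part of this in the levels of the 8 genes was not tested. The 8 were counted on their brightest probe sets, and other probe sets of a gene could differ. The second brightest probe set of Timp3 was not low on these 2 arrays, while a dimmer one was. Lox, not among the 8, was low on them on its second brightest probe set. Timp1, Nid1, Col11a1, Abi3bp and Ptn were not among the 8, and with both arrays left out the log2 fold of Timp1 against the remaining controls was -3.15 (adjusted p = 0.54 from 3 arrays).

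**Figure D4:**
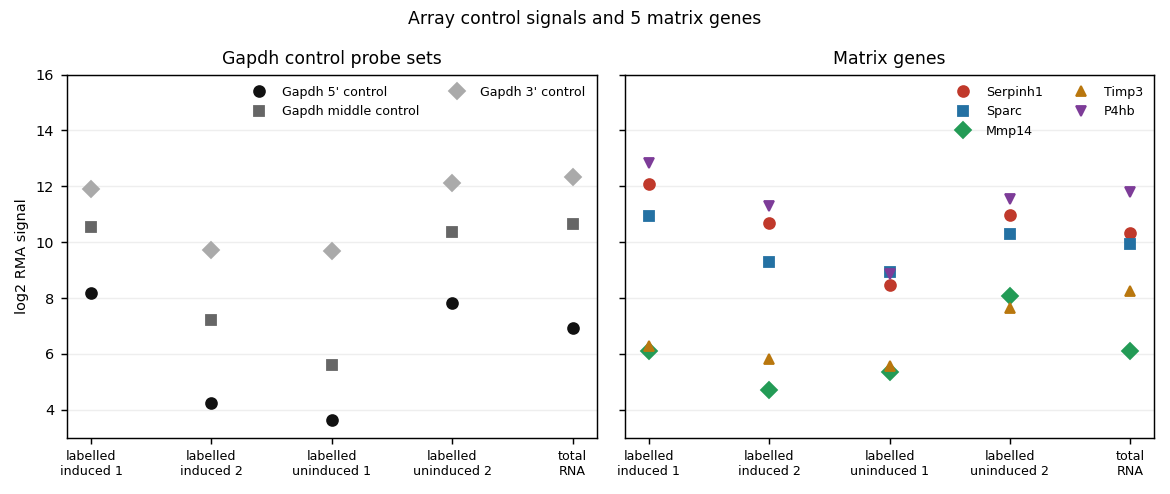
Log2 RMA signal (vertical axes) of the 3 Gapdh control probe sets (left) and of 5 genes (right) on the 5 arrays. The Gapdh 5' control is at 4.24 in induced-label RNP-IP 2 and 3.65 in uninduced-label RNP-IP 1, and Sparc, Mmp14, Timp3 and P4hb are lower there than on the other 3 arrays.

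Other genes of the matrix were taken from 4 lists set by function, also with earlier results of these data known, 94 genes of which 87 were measured. In the induced-label RNP-IPs 1 was higher and 1 lower than in the 3 controls, beside 1.32% and 2.36% of all genes. Plat (tissue plasminogen activator) was the higher one, with 9.66 and 9.55 in the induced-label RNP-IPs, 7.75 and 8.86 in the uninduced-label RNP-IPs and 6.78 in total RNA, a fold of 3.50 (log2 1.81, SE 0.68, adjusted p = 0.492). Itgb5, the beta chain of a vitronectin receptor, was the lower one, with 7.12 and 8.35 in the induced-label RNP-IPs, 9.36 and 9.29 in the uninduced-label RNP-IPs and 10.78 in total RNA (log2 -2.08, SE 0.68, adjusted p = 0.417). Of the lists, the 19 measured integrins and receptors had a median log2 fold of -0.59, the 14 enzymes of collagen biosynthesis 0.09, the 18 other proteases and inhibitors -0.16 and the 36 other structural genes 0.01. Against total RNA 5 of the 87 were higher in the uninduced-label RNP-IPs and 1 was lower, the hyaluronan receptor Cd44 (log2 -2.51, SE 0.60, adjusted p = 0.38), beside 1.26% and 1.36% of all genes.

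Mgp, Adamts1, Ogn, Aspn and Reck were the 5. Mgp, the matrix Gla protein that inhibits calcification, had 9.88 and 10.50 in the induced-label RNP-IPs, 10.08 and 9.88 in the uninduced-label RNP-IPs and 6.86 in total RNA, which is 8.71-fold above total RNA in the uninduced-label RNP-IPs (log2 3.12, SE 0.33, adjusted p = 0.209). Adamts1, a protease that cleaves aggrecan and versican, was 6.48-fold higher (adjusted p = 0.198), and the small proteoglycans Ogn (5.84-fold, adjusted p = 0.341) and Aspn (5.0-fold, adjusted p = 0.388) and the membrane-anchored MMP inhibitor Reck (4.51-fold, adjusted p = 0.403) followed. Between the RNP-IPs only Aspn and Itgb5 of the 87 were called, both lower in the induced-label RNP-IPs (log2 -1.66, adjusted p = 0.400, and -1.59, adjusted p = 0.458), beside 2.65% of all genes lower and 1.38% higher.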

How the data were processed

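The deposited values are log2 RMA signals that the authors computed from GeneChip Mouse 430 2.0 scans after repeated amplification of the RNA (RMA version not given in the sources used here). RMA equalizes the arrays, so a shift shared by most RNAs is not kept. The 45101 probe sets were named by the platform annotation: 34958 had 1 gene, 932 several and 9211 none. Each gene took its probe set with the highest mean over 5 arrays. All 45101 were fitted in limma 3.58.1 (R 4.3.3), with induced against both controls pooled (2 groups, as in the study's Results) or as 3 groups. Genes were called at a 3-fold difference or more with an adjusted p (Benjamini-Hochberg) below 0.5, a lenient rule taken from the study's Results. The study calls its RNP-IPs independent without naming separate cultures, so p-values measure the spread between these arrays. The code was tested on simulated data. The matrix genes and other lists were chosen with earlier results of these data known. By the naming rule every matrix gene appears by its values or its group's range, with full statistics for those called, for the 4 highest and 4 lowest log2 folds of a comparison and where a second probe set was called differently, and from each other list the called genes. Alternatives covered scaling, a filter on low means, the choice of probe set, a variance trend, the threshold, a replicate block and left-out arrays.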

Additional observations from a re-analysis of the deposited data

How the results depend on the processing

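Counts of called matrix genes changed with the settings. Of 293 values of single genes over the alternatives, 249 kept their side of the threshold, 25 lost and 19 gained a call, and 0 changed sign. Only genes called or among the 4 highest or 4 lowest log2 folds of a comparison were followed, so few could change sign. No setting used the dimmer probe set of Col11a1 alone between the RNP-IPs (log2 fold 0.50, against -2.12 for the brightest). The same holds for Col3a1 against the 3 controls (-0.66, against 1.02). Against the 3 controls, 1 gene was lower instead of 2 with cyclic loess or with the mean of all probe sets (Timp1 both times), and 1 was higher, not 0, with the probe set of largest fold (Thbs2). With single arrays left out this comparison gave 0 to 1 higher and 0 to 4 lower. Without induced-label RNP-IP 1 none was lower and Nid2 was higher, the 4 lower (Loxl1, Thbs1, Timp1 and Timp3) came without uninduced-label RNP-IP 1, and without uninduced-label RNP-IP 2 Timp1 alone. Between the RNP-IPs, 1 was lower instead of 3 with the mean of all probe sets (Timp1), and 1 was higher, not 0, with the filter on low means (Serpinh1) or the probe set of largest fold (Thbs2). Single arrays left out gave 0 to 1 higher and 2 to 5 lower, the 5 (Nid1 and Abi3bp added) without induced-label RNP-IP 2. Between the uninduced-label RNP-IPs and total RNA, 1 was lower, not 0, with median centring, cyclic loess, the filter or the variance trend (Fbln2 each time), and left-out arrays gave 3 to 4 higher and 0 to 3 lower, Lamc1 without uninduced-label RNP-IP 1 and Fbln2, Loxl1 and Timp3 without RNP-IP 2. At an adjusted p under 0.05 the counts were 0 in all 3 comparisons. The share of all genes called was counted for the main fits alone, so counts under the alternatives have none beside them. A left-out array leaves a lone sample assumed to vary like the others. The causes were not tested.

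Replicate numbers did not pair the RNP-IPs, since deviations of same-numbered arrays correlated at r = -0.50 over 45101 probe sets. With the replicate block 1 gene was lower, Timp1 (adjusted p = 0.49977), and Col11a1 (0.574) and Ptn (0.701) lost their calls. A crossed pairing, chosen after seeing the data, called 1 higher and 3 lower. Leaving out both arrays with low Gapdh 5' signals, also chosen after seeing the data, left a lone induced-label RNP-IP, so calls from that fit are not counted here.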
